A study of Mus musculus with 5 samples.

Results

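PABPC1 eCLIP in cells labelled GC-2spd(ts) gave a list of 14092 peaks, out of 43658 in the 3 peak lists of the series, and every row of that list is described here. GC-2spd(ts) is a mouse line labelled as spermatocyte cells, derived from spermatocytes carrying SV40 large T antigen and a temperature-sensitive p53. No genotype change, treatment or time is given in the labels. The list rests on 1 immunoprecipitation with an anti-PABPC1 antibody and 1 input library prepared in parallel from cell lysate without immunoprecipitation, both of them total RNA libraries. In eCLIP, RNA crosslinked to a protein is fragmented with RNase, recovered with an antibody and sequenced beside the input. With 1 list there is no replicate check, and the depth behind each peak is unknown. Ranges given after a share are its Wilson 95% interval and reflect counting error alone. Reads copied by PCR do not count separate molecules, and peaks side by side in a gene share reads of the same mRNA.

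PABPC1, the main cytoplasmic poly(A)-binding protein, coats the poly(A) tail of mRNAs and joins it to the cap through the scaffold protein eIF4G. It takes part in translation and in the control of mRNA decay, and it also binds A-rich stretches outside the tail. Its own mRNA is a known target, through an A-rich element in the 5′ UTR that limits its translation. Male germ cells store many mRNAs for later translation and are known for the close control of poly(A) tail length.

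The list carried markers of several testicular cell types beside those of spermatocytes, although the label gives a single spermatocyte line. A PABPC1 peak lay in 28 of 38 spermatocyte marker genes, against 24.0% of all 21896 protein-coding genes (5255 genes), and by the gene listed in the table the count was 18 of 38. They included Dazl, a germ cell RNA-binding protein, with 14 peaks up to a log2 fold of 7.53 over input, and Hspa2, a germ cell heat shock protein, with 13 peaks up to 6.62. Peaks also lay in 15 of 22 spermatid markers, led by the protamine gene Prm1 at 8.43, with the transition protein genes Tnp1 at 5.01 and Tnp2 at 5.54, and in 7 of 14 spermatogonial markers, led by Dmrt1 at 6.56. Of somatic cell types, 11 of 16 Sertoli, 6 of 9 Leydig, 4 of 6 peritubular and 9 of 12 fibroblast markers had a peak. The protease gene Ctsl reached 6.67, the steroidogenic enzyme gene Cyp11a1 5.57 and the smooth muscle myosin gene Myh11 7.53. Of the other Sertoli markers, Cst9 reached 6.30, and Clu and Cldn11 had 11 peaks each, up to 5.35 and 5.26. Sox9, Gata4 and Wt1 reached 4.83, 4.39 and 3.89. The Leydig hormone gene Insl3 had 22 peaks up to 7.71, all where gene spans overlap. Macrophage markers had a peak in 5 of 10 cases, the 3 complement genes C1qa, C1qb and C1qc among them at 3.08, 4.06 and 5.07. The macrophage markers Adgre1, Cd68, Csf1r, Mrc1 and Ptprc had no peak. Nor had the Sertoli markers Amh, Fshr, Dhh, Gdnf and Rhox5 or the Leydig markers Star, Hsd17b3 and Lhcgr. Germ cell markers without a peak were the spermatocyte genes Sycp2, Tex12, Hormad1, Rec8, Smc1b, Msh5, Rad21l, Majin, Terb1 and Prdm9. In the spermatid list they were Tssk1, Tssk6, Spata18, Gapdhs, Catsper1, Izumo1 and Oaz3. In the spermatogonial list they were Zbtb16, Gfra1, Nanos2, Nanos3, Etv5, Ret and Dnmt3l. Counts were 2 of 9 for endothelial, 3 of 13 for neuronal (both 0 by listed gene), 1 of 14 for striated muscle (3 by listed gene), 1 of 13 for blood and 0 of 14 for liver markers. A count of 0 in 14 allows a share of up to 21.4%. The label names no Leydig, Sertoli, peritubular or macrophage cells and no spermatids. Ctsl and many fibroblast markers are widely expressed, while Insl3, Prm1, Tnp1, Tnp2 and the C1q genes are known as restricted to their cell types. In a bulk lysate, fewer cells of a type and less RNA per cell cannot be told apart. Where the RNA of these markers came from was not tested, nor was its part in the results that follow.

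Peaks on microRNA genes are shown first, because their borders can be read against known sequences. A microRNA is cut from a hairpin as an RNA of about the width of these peaks, and its seed, bases 2 to 8, pairs with target mRNAs. Of 1005 hairpins in the RefSeq table (GRCm38.p6), 29 were overlapped by a total of 42 PABPC1 peaks on their own strand. In 27 of them a mature sequence in the table lay under a peak, and the peaks covered at least 80% of it in 26. In 24 of the 27 both outer borders of the peaks lay within 3 bases of the ends of the mature sequence. Peak coordinates were read as 1-based, which no source states, and another reading of the starts would move 1 border by 1 base. The median stretch under peaks was 23 bases and the median mature length 22. The exceptions were Mir423, whose peaks ran 7 bases past one end, Mirlet7g, whose peak started 5 bases away from the end of the mature sequence, and Mir871, with 65.2% covered. Their RefSeq sequences follow, 5′ to 3′ with the seed in capitals, for groups with a shared seed and then for single microRNAs.
mmu-miR-34a-5p: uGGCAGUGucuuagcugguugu
mmu-miR-34b-5p: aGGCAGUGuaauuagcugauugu
mmu-miR-449a-5p: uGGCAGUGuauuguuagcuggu
mmu-miR-27a-3p: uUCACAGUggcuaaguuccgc
mmu-miR-27b-3p: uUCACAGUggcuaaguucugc
mmu-miR-30a-5p: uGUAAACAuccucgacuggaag
mmu-miR-30e-5p: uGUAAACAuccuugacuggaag
mmu-let-7b-5p: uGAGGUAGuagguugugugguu
mmu-let-7g-5p: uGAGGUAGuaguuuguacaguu
mmu-miR-423-5p: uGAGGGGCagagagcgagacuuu
mmu-miR-202-5p: uUCCUAUGcauauacuucuuu
mmu-miR-470-5p: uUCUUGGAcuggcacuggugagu
mmu-miR-741-3p: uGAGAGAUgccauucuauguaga
mmu-miR-201-5p: uACUCAGUaaggcauuguucuu

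Mir34a (chr4:150068454-150068555, plus strand), a p53 target, had 2 touching peaks that together spanned 23 bases, with a log2 fold of up to 5.76. Mir34b and Mir449a, which share its seed, had folds of 4.86 and 4.78, and Mir34c had 2 peaks at up to 6.97. The miR-34 and miR-449 family is known for its expression in meiotic and later male germ cells. Mir27a, with the same seed as Mir27b, reached 7.20 and the latter 5.72. Mir202, a microRNA known from the gonads, had 2 peaks at up to 5.61 that covered all 21 bases of its 5p arm. On the X chromosome, 7 microRNA genes on the minus strand between 66780373 and 67988161 had 1 peak each, with folds from 4.07 to 5.53. Across all 29 hairpins the median highest fold was 5.27. Mir423, which lies where gene spans overlap, stood apart at 11.43 with 3 peaks at the highest deposited −log10 p of 400.

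Most genes carried few peaks. By position, 97.8% of peaks lay in a RefSeq gene, and these fell in 5401 genes, of which 5255 were protein-coding, 93 long noncoding and 35 microRNA genes. The median was 2 peaks per gene, and 2290 genes (42.4%, 41.1 to 43.7%) had a single peak. Another 2356 genes had 2 to 4 peaks, 668 had 5 to 9, and 87 (1.61%) had 10 or more. Those 87 genes held 7.95% of the assigned peaks. The highest fold in a gene was larger where peaks were more numerous, with a median log2 fold of 4.12 in genes with 1 peak and 6.33 in genes with 10 or more. The median fold within a gene was 4.12 and 4.51 in the same groups. The highest of many values is larger by construction than a single one. Protein-coding genes with a peak had a median span of 24414 bases and those without one 15070 bases.

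Neighbouring peaks often touched. No peaks overlapped on the same strand, but 1946 pairs followed each other without a gap, and 3396 peaks (24.1%, 23.4 to 24.8%) touched at least 1 other. The list thus held 12146 uninterrupted stretches, of which 1450 were made of 2 or more peaks and 42 of 5 or more. The most peaks in a stretch was 9, in Hspa2 over 190 bases and in Slc2a3, a glucose transporter gene, over 103 bases. The widest stretch measured 324 bases, in 5 peaks of Hspa5, the endoplasmic reticulum Hsp70. Between neighbouring peaks of a gene on 1 strand the median gap was 55 bases, and 29.1% of gaps were at most 10 bases. Touching peaks differed by a median of 0.50 in log2 fold, and neighbours more than 100 bases apart by 0.66. When peaks within 10 bases were joined, the largest number in a gene went from 31 to 15 and the share of genes with 1 peak from 42.4% to 49.1%.

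Peaks were narrow, with a median width of 50 bases (quartiles 36 and 67) and a range from 1 to 253 bases. Intronic peaks had a median of 33.5 bases over 154 peaks, and peaks in 3′ UTRs one of 50 bases over 11263 peaks. The 677 peaks at a −log10 p of 400 were narrower, with a median of 34 bases against 50 for the other 13415. Of the 677, 12.4% (10.1 to 15.1%) were under 10 bases wide, against 1.49% (1.30 to 1.71%) of the others. They also had higher folds, with a median log2 fold of 5.33 against 4.15. Peaks that touched another had a median width of 39 bases, and those that touched none one of 52. When peaks within 10 bases were joined, 0.284% were under 10 bases wide, against 2.02% of the list as deposited. The part of such splitting in the narrower width of the 677 peaks was not tested. Over all 14092 peaks the rank correlation of width with fold was −0.05, given as a description only.

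**Figure D1:**
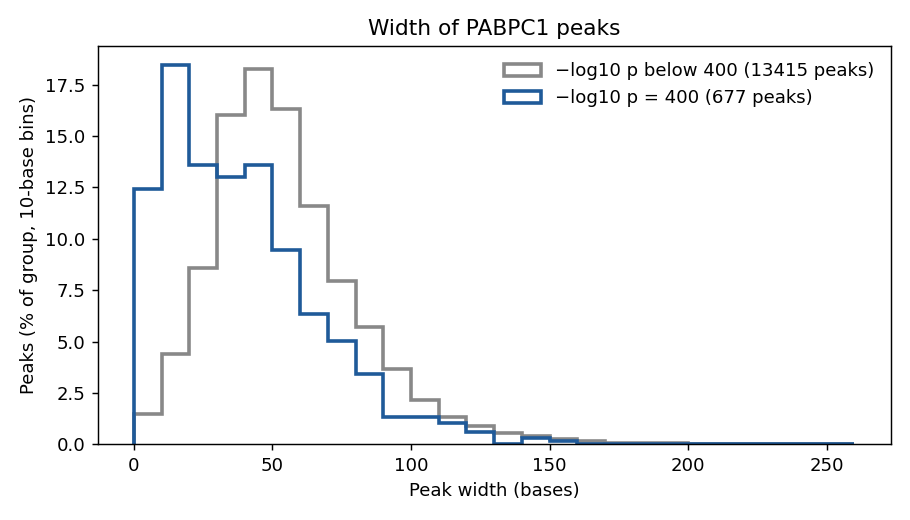
Width of PABPC1 peaks in bases (x axis, bins of 10 bases) as the percentage of peaks in each group (y axis), for the 677 peaks at a −log10 p of 400 and the 13415 below it. The line for the 677 peaks lies further left, with 12.4% under 10 bases wide against 1.49%.

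The 5 widest peaks lay in genes of varied function and had log2 folds from 3.33 to 5.44. The widest, of 253 bases, was the single peak of Irf2bp1, a transcriptional corepressor gene, at chr7:19006250-19006502 with a log2 fold of 3.63. It was followed by 238 bases in Psmc6, a proteasome ATPase gene, at 4.17. Peaks of 223 bases lay in Acsl3, a fatty acid activating enzyme gene, at 5.44, and in an exon of Aebp1 at 3.33. Fkbp3, a prolyl isomerase gene, had 1 peak of 216 bases at 4.16. None of these 5 peaks was at a −log10 p of 400.

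Along genes, peaks were concentrated at the 3′ end. The gene strand was known for 13177 peaks, and 12868 of them lay on that strand, called sense peaks here. Of the sense peaks 75.4% (74.6 to 76.1%) had their midpoint in the last of 10 equal segments of the RefSeq gene span, 8.71% in the segment before it and 4.32% in the first segment, while each of the others held between 0.979% and 3.23%. The median midpoint lay 548.5 bases from the 3′ end, with quartiles of 163 and 1796 bases. Distances run along the genome and include introns.

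**Figure D2:**
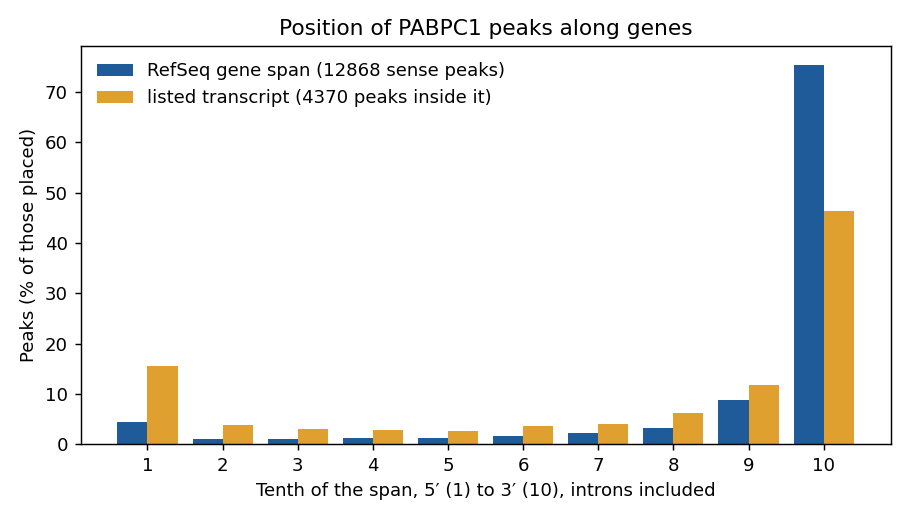
Percentage of PABPC1 peaks (y axis) in each of 10 equal segments of the span, from 5′ (1) to 3′ (10) on the x axis, for 12868 sense peaks in RefSeq gene spans and for 4370 peaks inside their listed transcript. The last segment holds 75.4% of the first set and 46.4% of the second, and the first segment 4.32% and 15.6%.

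Folds were highest next to the 3′ end. Sense peaks less than 50 bases from it had a median log2 fold of 4.77 (quartiles 4.05 and 5.56, 871 peaks), and those from 50 to 100 bases one of 4.55. The median was 4.31 from 100 to 200 bases, 4.18 from 200 to 500 bases and 3.92 at 5000 bases or more (quartiles 3.41 and 4.75, 1499 peaks). The quartile ranges overlapped throughout, and the rank correlation of distance and fold over 12868 peaks was −0.17, as a description. The median −log10 p was 10.1 in the nearest group, highest at 11.6 from 100 to 200 bases and lowest at 8.90 in the farthest group. Over all 14092 peaks the rank correlation of fold and −log10 p was 0.32.

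**Figure D3:**
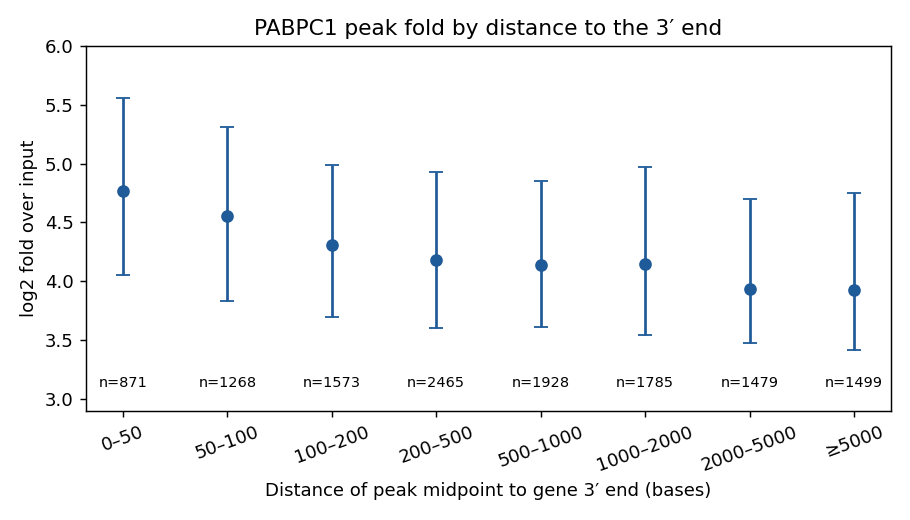
Median log2 fold over input (points) with quartiles (bars) of sense PABPC1 peaks by the distance of the midpoint to the gene 3′ end in bases, with the number of peaks in each group. Medians go from 4.77 nearest the end to 3.92 at 5000 bases or more, with overlapping quartile ranges.

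The transcript named for a peak was a poor guide to where the peak lay. Only 4370 peaks (31.0%, 30.3 to 31.8%) had their midpoint inside it. Another 6739 (47.8%) lay beyond its 3′ end and 2983 (21.2%) upstream of its start. The listed gene was the gene that held the peak in 9606 cases (68.2%), and even then 4981 peaks lay beyond the end of the listed transcript. Of the 4370 peaks inside, 2029 (46.4%, 45.0 to 47.9%) were in the last segment and 680 (15.6%) in the first. For example, all 19 peaks of Fbxo3, an F-box protein gene, were listed under Cd59b. All 4 peaks of G3bp1, a stress granule protein gene, were listed under the microRNA gene Mir7652. The Psmc6 peak was listed under Styx.

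The deposited annotation called 1858 peaks promoter peaks, and these did not all lie at gene starts. Of 1719 sense peaks in that class, 35.0% (32.8 to 37.3%) were in the last segment of the gene span that held them and 30.1% (28.0 to 32.3%) in the first. The class had a median log2 fold of 3.90, against 4.29 in 3′ UTRs, 3.66 in other exons, 4.74 in introns and 4.26 over 37 peaks in 5′ UTRs. G3bp1 is an example. Its highest peaks, at chr11:55500303-55500327 and chr11:55500328-55500386, had log2 folds of 9.20 and 8.93 and were called promoter peaks, although they lay 573 and 531 bases from the 3′ end of the gene. Its other peaks, in exons, had folds of 3.41 and 3.81.

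Peaks followed the strand of their gene closely. Only 309 of 13177 peaks (2.35%, 2.10 to 2.62%) lay on the opposite strand. Where 1 gene span covered the position the count was 25 of 12224 (0.205%, 0.139 to 0.302%), and where several did it was 284 of 953 (29.8%, 27.0 to 32.8%). Genes were assigned by position without use of the peak strand. Where spans overlap, an opposite peak may thus lie on the strand of another gene there. For which peaks this holds was not tested, so the 29.8% is no measure of antisense binding. In Snapc3, a subunit gene of a small nuclear RNA transcription complex, 12 of 13 peaks were opposite, and all 12 lay where spans overlap. In Prkca, a kinase gene, all 6 peaks were opposite with no second span in the table. Against the strand of the listed transcript 14.5% of peaks were opposite, 3.87% of those inside it and 19.3% of those outside. Plus and minus strands of the genome held near equal shares, with 50.4% (49.6 to 51.3%) of peaks on the plus strand.

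Pabpc1, the gene of the precipitated protein (gene ID 18458, minus strand of chromosome 15, 36595658 to 36609581), had 16 peaks, and the highest lay at its 5′ end. There were 12 peaks between 36608815 and 36608966, from 7 to 158 bases after the start of the listed transcript, which covered 137 bases. Their log2 folds ran from 5.03 through a median of 7.67 to 8.94, and all 12 were at a −log10 p of 400. The other 4 peaks lay in the 3′ UTR between 36595706 and 36595917. Their folds were 3.32, 3.17, 6.62 and 5.90 in the order of the coordinates, and 2 of them were at a −log10 p of 400. The 5′ group thus reached higher folds than the 3′ group, with an overlap between 5.03 and 6.62. This contrasts with the list as a whole, where 4.32% of sense peaks were in the first segment of a gene.

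**Figure D4:**
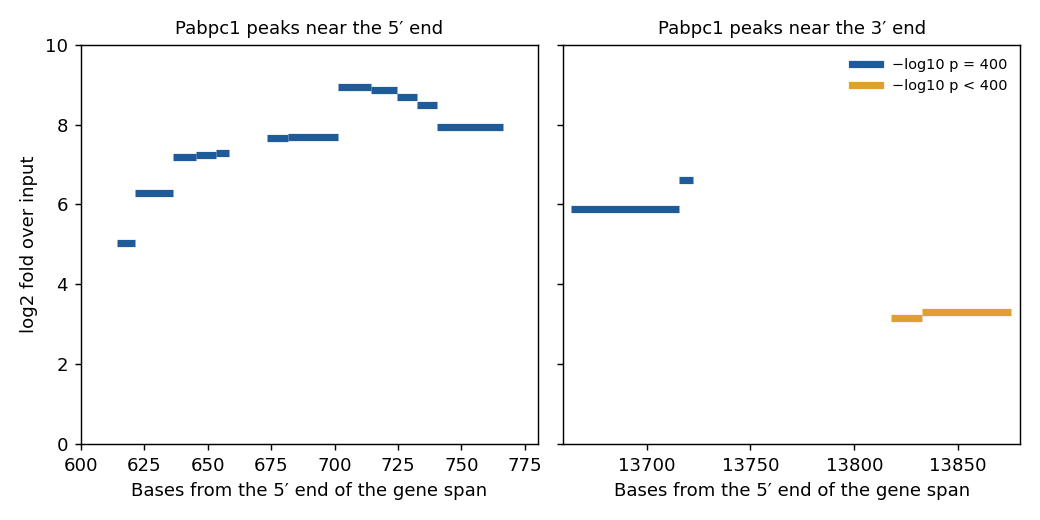
The 16 PABPC1 peaks in Pabpc1 as horizontal bars of their own width, with bases from the 5′ end of the RefSeq gene span on the x axis and log2 fold over input on the y axis. The 12 peaks near the 5′ end lie between 5.03 and 8.94 and the 4 near the 3′ end between 3.17 and 6.62.

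By the RefSeq span, few peaks in protein-coding genes lay close to the 5′ end. In protein-coding genes, 325 of 12714 sense peaks (2.56%, 2.30 to 2.85%) lay within 200 bases of the 5′ end of the RefSeq span and more than 1000 bases from its 3′ end. They fell in 259 genes and had a median log2 fold of 3.70. The 23 at a −log10 p of 400 belonged to 9 genes, given here after their values were seen. Among these were Fscn3, a testis fascin gene, with 4 peaks from 7.08 to 7.25, and Spata4, a spermatogenesis gene, at up to 6.57. The metabolic enzyme gene Sord reached 5.64, the ribosomal protein gene Rps20 4.97 and Tpt1, a translationally controlled mRNA, 4.46. The Pabpc1 group is not among them, since the RefSeq span of that gene starts further upstream than the listed transcript. Peaks of other genes may be left out in the same way. Short genes such as Prm1 are left out by the limit of 1000 bases. Of the 4370 peaks inside their listed transcript, 15.6% were in its first segment.

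Several mRNAs had sharp, high peaks at their 3′ end. Mrto4, a ribosome assembly factor gene, had 2 touching peaks of 4 and 35 bases at chr4:139347461-139347464 and chr4:139347465-139347499, with log2 folds of 11.91 and 11.94. Sbno1, a helicase-related gene, had a peak at 9.27 whose midpoint was 45.5 bases from its 3′ end, and 10 others between 3.25 and 5.32. Slc2a3 had its highest peak at 9.45, 32.5 bases from the 3′ end. Most of its 31 peaks lay farther away, up to 1607 bases, with a fold of 6.70 at 1071 bases. Eif4g3, which encodes a member of the eIF4G scaffold family that PABPC1 binds, had 7 peaks in its 3′ UTR. Their folds were 9.31, 9.38, 8.83, 7.77, 4.75, 3.63 and 5.86 in the order of the coordinates, and the highest lay 588.5 bases from the 3′ end. The highest peak of each of these genes was within 600 bases of the end, whereas Pabpc1 peaked at the opposite end.

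Other genes were covered over long stretches at lower folds. Fbxo3 had the most bases under peaks, 901, in 19 peaks with log2 folds from 3.42 to 5.33. Canx, the gene of the endoplasmic reticulum chaperone calnexin, had 715 bases in 19 peaks with folds up to 5.999. Pkdcc, a secreted kinase gene, had 701 bases in 9 peaks up to 4.95, and Tpm1, a tropomyosin gene, 694 bases in 14 peaks up to 5.34. Ssr1, a subunit gene of the complex beside the protein translocation channel, had 693 bases in 15 peaks up to 6.49. Hnrnpa2b1 followed with 691 bases and Ccar1, a cell cycle regulator gene, with 688 bases. The 680 bases assigned to Snapc3 lay almost all on the opposite strand, and its 1 sense peak covered 113 bases. Apart from Hnrnpa2b1, at most 1 peak in each of these genes was at a −log10 p of 400.

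A few genes had most of their peaks outside annotated 3′ UTRs. Hnrnpa2b1, a nuclear ribonucleoprotein gene, had 23 peaks, none annotated to the 3′ UTR, with folds from 3.05 to 6.18 and 9 at a −log10 p of 400. They were mostly of the promoter class, and their midpoints lay between 2376.5 and 5743.5 bases from the 3′ end of the gene span. Hsp90b1, the endoplasmic reticulum Hsp90, had 14 of its 22 peaks in other exons, the farthest 3100.5 bases from the 3′ end. Its 4 peaks nearest the 3′ end had folds between 6.54 and 6.79, and the 2 farthest had 3.34 and 3.16. Cirbp, a cold-inducible RNA-binding protein gene, had 11 peaks, all of the promoter class, with folds from 3.16 to 6.08. Of these, 3 were at a −log10 p of 400. The Cirbp midpoints lay between 21.5 and 2466 bases from the 3′ end of the gene span. The promoter class thus does not place these peaks at the gene start.

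Genes that bring proteins into the endoplasmic reticulum were the class with the largest share of members reached. Of 26 gene classes, 21 had a larger share of members with a peak than the 24.0% of all protein-coding genes, and 3 had none. The genes of those 3 classes are counted in the 24.0%. Members and lists were chosen with earlier results of these data known, so the tally describes that choice as well as the peaks. Expression was not measured, and the absence of a peak does not show that PABPC1 was absent. Of 23 genes for signal recognition, the translocation channel and signal peptidase, which bring new proteins into the endoplasmic reticulum, 20 had a peak (87.0%, 67.9 to 95.5%). They held 101 peaks with a median highest log2 fold of 5.13, against 4.67 over all 5255 protein-coding genes with a peak, which held 13529 peaks. The highest fold was larger where peaks were more numerous. Its median was 4.86 in all genes with 2 to 4 peaks and 5.61 in those with 5 to 9. The part of peak number in the value of 5.13 was not tested. Srp9, a signal recognition particle subunit, reached 7.45 in 6 peaks, Ssr3 7.12 in 6 and Spcs2, a signal peptidase subunit, 6.19 in 8. Of 22 genes for the COPI and COPII coats of transport vesicles, 12 had a peak (7 by listed gene), with Sar1b at 7.14 and Sec23a at 7.06. The highest in that class, Copa at 9.48, was an intronic peak. Of 23 cholesterol synthesis genes and their regulators 12 had one, with the regulator gene Srebf1 at 5.89 and the enzyme gene Sqle at 5.38. Genes named Tmem, for transmembrane proteins, had a peak in 82 of 236 cases (34.7%, 29.0 to 41.0%), with Tmem128 at 7.32.

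Protein turnover genes were also frequent. Of 32 proteasome subunit genes, 21 had a peak (65.6%, 48.3 to 79.6%), with Psmb2 at 6.80, Psma2 at 6.70 and Psma1 at 6.67. Of 37 ubiquitin-conjugating enzyme genes 22 had one (14 by listed gene), led by Ube2j1, an enzyme of the endoplasmic reticulum, with 8 peaks up to 8.18. Ube2e3 reached 6.84, Ube2r2 6.81 and Ube2t 6.73. Genes named Usp, mostly deubiquitinases, had a peak in 22 of 56 cases, with Usp37 at 6.49, and F-box genes in 28 of 78. Fbxo8 reached 6.61 and Fbxw2 6.47, while the 3 peaks of Fbxl22, up to 7.56, all lay opposite to it where spans overlap.

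Genes for RNA granule and RNA helicase proteins were frequent in the list. Of 23 RNA granule genes 17 had a peak (73.9%, 53.5 to 87.5%), with G3bp1 as above, Ddx6, a helicase of processing bodies, at 8.37 in 8 peaks, Tial1 at 6.73 and Caprin1 at 6.71. DEAD and DEAH box helicase genes had a peak in 24 of 53 cases, Dhx9 reaching 6.98 and Ddx5 6.06, with the germ cell helicase gene Ddx4 at 5.87. Of 37 RNA decay factor genes 17 had one (11 by listed gene), led by Lsm3 at 6.15 and the nonsense-mediated decay factor Upf2 at 5.89. Among 13 genes of the microRNA machinery 5 had one, with Ago4 at 7.15 and the GW182 genes Tnrc6a and Tnrc6c at 6.88 each. Genes listed for mRNAs with a terminal oligopyrimidine start, a sequence that links translation to growth signals, other than ribosomal protein genes, had a peak in 13 of 21 cases. Apart from Pabpc1 the highest were Vim at 6.07, Eif4b at 5.36 and Npm1 at 5.19. Of the 55 peaks in the class 41.8% were in 3′ UTRs, against 79.9% of all peaks. The 55 include the 16 peaks of Pabpc1, of which 12 were of the promoter class. Of 22 tRNA synthetase and partner genes 10 had a peak (6 by listed gene), led by Eef1e1 at 6.66 and Yars at 5.93.

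Energy genes were reached to differing extents. Nuclear genes of the respiratory chain had a peak in 48 of 85 cases (56.5%, 45.9 to 66.5%). Their median highest fold was 4.21, with Atp5e at 7.11, Cox7b2, a testis cytochrome oxidase subunit, at 6.30 and Ndufc2 at 6.28. Mitochondrial ribosomal protein genes had a peak in 29 of 78, with Mrps9 at 6.61. The highest, Mrps18a at 7.89, lay where spans overlap. Glycolysis genes had a peak in 6 of 17, with Tpi1 at 5.13 and Ldha at 4.85. Iron handling genes had one in 5 of 11, led by the transferrin receptor gene Tfrc at 5.90, and nucleoporin genes in 11 of 21 (7 by listed gene), led by Nup88 at 7.13.

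In some classes the interval held the share of all protein-coding genes or lay below it. Rab GTPase genes of vesicle traffic had a peak in 19 of 59 cases (32.2%, 21.7 to 44.9%), led by Rab28 at 6.19 and Rab1a at 5.85. The glycolysis, microRNA machinery and iron handling classes were of this kind too, with intervals from 17.3 to 58.7%, from 17.7 to 64.5% and from 21.3 to 72.0%. Kinesin genes had a peak in 12 of 38 cases (31.6%, 19.1 to 47.5%), led by Kif15 at 7.99, and immediate early or AU-rich mRNAs in 7 of 34 (20.6%, 10.3 to 36.8%). The latter included Klf10 at 5.51, Ccn2 at 5.13, Junb at 5.06 and Ier2 at 4.84, in all cases in the 3′ UTR. Solute carrier genes had a peak in 69 of 371 cases (18.6%, 15.0 to 22.9%). After Slc2a3 the highest among them outside overlapping spans were Slc35f5 at 6.14 and Slc38a5 at 6.10, and Slc7a5, an amino acid transporter gene, had 14 peaks. No peak lay in any of 1110 olfactory receptor, 353 vomeronasal receptor or 53 keratin genes (2, 1 and 0 by listed gene), which allows shares of up to 0.270%, 0.850% and 5.66%.

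**Figure D5:**
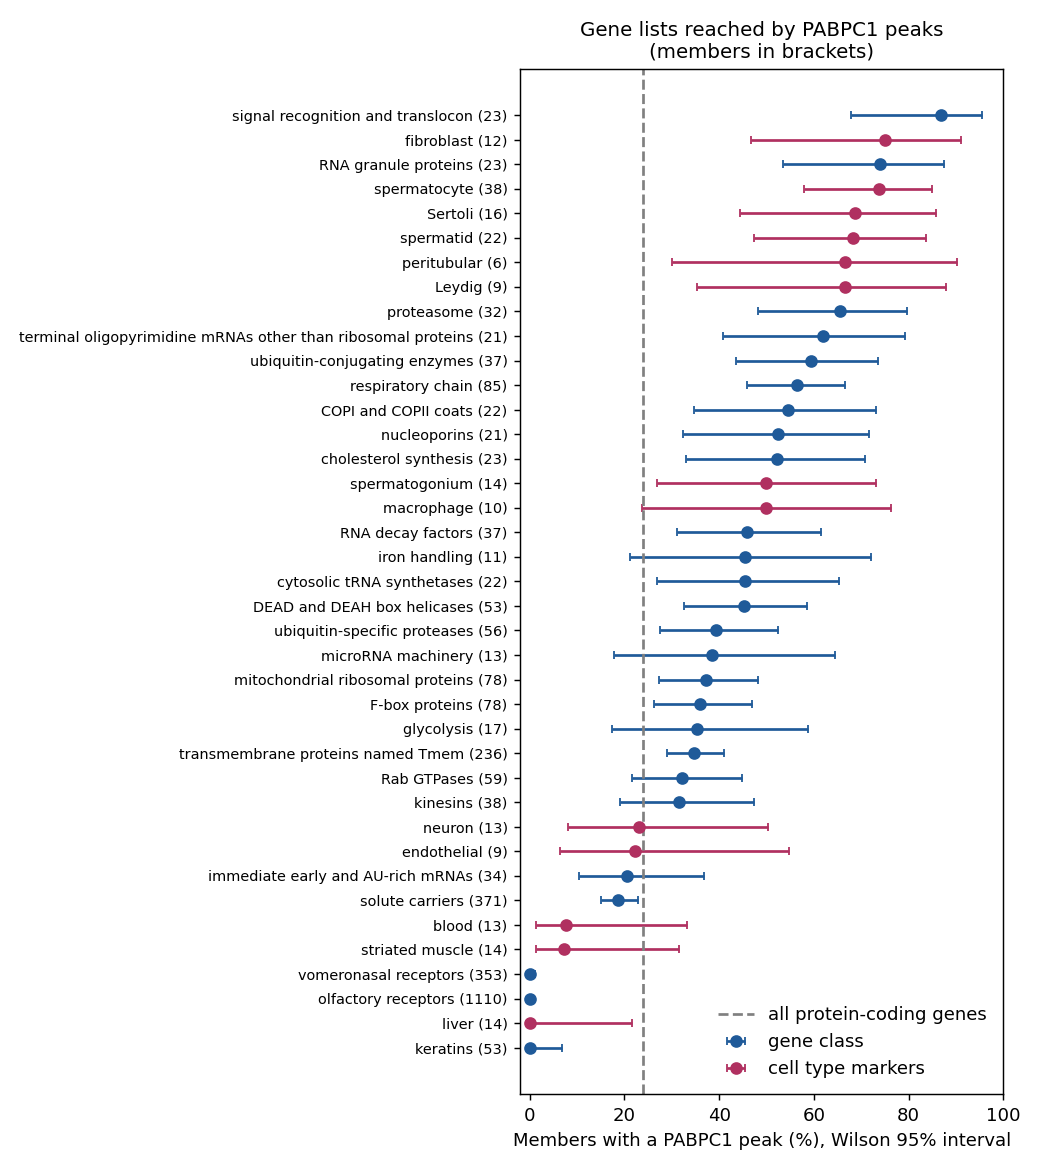
Percentage of the members of each gene class (blue) and cell type marker list (red) with a PABPC1 peak, with Wilson 95% intervals, and the 24.0% of all protein-coding genes as a dashed line. Signal recognition and translocon genes lie highest at 87.0%, and olfactory receptor, vomeronasal receptor, keratin and liver marker genes lie at 0. Lists were chosen with earlier results of these data known.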

How the data were processed

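The deposited list of PABPC1 peaks was used, and of the CCT3 lists only the rows were counted. Per the submitters' processing notes, bcl2fastq 2.20 and the build mm10 were used. Not given in the sources used here: aligner, peak caller and annotation tool. The −log10 p and the log2 fold of each peak are the authors' deposited values. Their columns are unnamed and were read from their ranges and from the order of named columns in a sister table. All peaks had both values at 3 or more, and −log10 p stops at 400. The number of runs behind each value is not stated. Coordinates were read as 1-based, since the deposited widths include both end bases; no source states it.

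Peaks were assigned by midpoint, without use of the peak strand, to RefSeq genes (GRCm38.p6, the same build as mm10). A small RNA gene came first, then the gene ID in the annotation, then the single gene there, then the listed gene. Gene strand came from the RefSeq promoter and microRNA tables, otherwise from the listed transcript. Of 470 listed symbols 2 were unmatched. Python 3.11.15, numpy 2.4.6, pandas 2.3.3 and matplotlib 3.10.9 were used, and the assignment was tested on simulated data. No test was run, since there is 1 list. Members and lists were chosen with earlier results of these data known. Named genes are Pabpc1, the 8 genes with most bases covered, those of the 5 widest peaks, those of the 8 highest folds among peaks of at least 10 bases at the highest −log10 p, the 4 with most peaks outside 3′ UTRs, and up to 4 members of each list by highest fold. Others, such as Fscn3, Prkca, Hspa5, C1qa and Slc7a5, were named after seeing values. The alternatives were a stricter threshold (log2 fold 4 or more, −log10 p 5 or more), joining peaks within 10 bases, peaks of at least 10 bases, listed genes, no opposite-strand peaks, no peaks at the highest −log10 p, and other definitions of position, strand and share.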

Additional observations from a re-analysis of the deposited data

How the results depend on the processing

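No paired analysis was possible because 1 list gives no samples to pair. Alternatives gave 51 values for 13 results, and 30 of these kept inside the main interval or spread or, for counts, within 1.5 times. At a log2 fold of at least 4 and a −log10 p of at least 5 the list held 6974 peaks in 3277 genes, 14.6% of protein-coding genes and 375 in place of 597 members of the 39 lists. There 52.1% of genes had 1 peak, 2.80% of peaks were under 10 bases wide, 53.2% of those inside the listed transcript were in its last segment, 70.8% were outside it, 2.77% were opposite to the gene strand, 85.9% were in 3′ UTRs and 39.8% of neighbours lay within 10 bases. Joining peaks within 10 bases gave 49.1% of genes with 1 peak, at most 15 peaks in a gene, a median width of 56 bases and 0.284% of peaks under 10 bases. The share in the last segment was 74.6% in RefSeq spans, opposite-strand peaks included, and 60.8% for exonic and UTR peaks. The opposite-strand share was 14.5% against listed transcripts and 0.205% in single spans, and the 3′ UTR share 80.7% by covered bases. By listed gene 22.6% of protein-coding genes had a peak, and 11 of 39 lists, given beside their counts, changed by over 1.5 times, against 19 at the stricter threshold and 0 without opposite-strand peaks. At the stricter threshold the share of all protein-coding genes fell too, from 24.0% to 14.6%. There it was 16.7% for mitochondrial ribosomal protein, 19.2% for F-box and 19.5% for Tmem genes. For signal recognition and translocon genes it was 73.9%, and for proteasome genes 59.4%. The stricter setting removes peaks, and why the other values moved was not tested. Depth is unknown, which limits what an absent peak can show.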

Other observations

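The share of protein-coding genes with a PABPC1 peak differed between chromosomes. It was 28.7% (26.5 to 30.9%) of 1609 genes on chromosome 11 and 16.7% (14.4 to 19.1%) of 966 genes on the X chromosome, the lowest apart from the Y chromosome, where 2 of 256 genes had one. Those on the Y chromosome were Ddx3y, an RNA helicase gene, with peaks at log2 folds of 3.86 and 5.13, and Eif2s3y, a translation initiation factor gene, with peaks at 4.00 and 3.86, all in 3′ UTRs. Expression of these genes was not measured.

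Folds and p values recurred across peaks. The 14092 peaks held 5835 distinct log2 folds, of which 106 were each shared by 20 or more peaks and together covered 3636 peaks. The most frequent, 4.69, was listed for 80 peaks, and the value 1 lower for 76. No −log10 p lay between 306 and 400.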
